A study of Mus musculus with 48 samples.

Results

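The genes followed here are the 10 that carry the D cyclin step of the cell cycle in T cells: Ccnd1, Ccnd2 and Ccnd3, their kinase partners Cdk4 and Cdk6, the CDK inhibitors Cdkn1a, Cdkn1b, Cdkn2c and Cdkn2d, and Rb1. They were picked by name for their known roles out of 53345 genes in the deposited matrices. The rule used no measured value, but earlier results of these data were known when it was written. All 10 passed the filter on low counts in each set of libraries.

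D-type cyclins bind CDK4 and CDK6 and turn on their kinase activity, which phosphorylates the retinoblastoma protein and frees E2F factors to switch on S phase genes. INK4 proteins such as p18 (Cdkn2c) and p19 (Cdkn2d) block CDK4 and CDK6 themselves, whereas the Cip/Kip proteins p21 (Cdkn1a) and p27 (Cdkn1b) bind cyclin and kinase together and also restrain CDK2. In T cells, IL-2 and antigen receptor signals act together on this step, and p27 is known for holding resting T cells out of the cycle.

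The study asked how wild-type and attenuated IL-2 act on regulatory T cells (Tregs) in mice, and how much of that needs antigen presented on MHC class II. Female C57BL/6 mice aged 8 to 12 weeks received 2 intraperitoneal doses of 500 µg of either an MHC II blocking antibody or its isotype control, so that every group, the PBS controls included, carried an injected antibody. Mice then received PBS or 25 µg of an Fc-fused human IL-2 under the skin: wild-type (WT IL-2), the mutein H16R, which carries 1 substitution, or the mutein 3x, which carries several and is the more attenuated. Spleens were taken on day 4, and RNA was sequenced from the CD25-bound cells of a Treg isolation kit (Tregs) and from the CD25- CD4 cells that flowed through it (conventional T cells, Tcons). Tregs were therefore isolated by CD25 on a column, and the study's methods state that Foxp3 staining of aliquots served to check their purity. There were 8 Treg groups of 4 libraries, 32 in all, and 8 Tcon groups of 2 libraries, 16 in all, from mice that also gave a Treg library. A pair of the 4 isotype WT IL-2 Treg libraries (replicates 3a and 3b) carried the same mouse number, and p-values in that group may rest on fewer than 4 animals.

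Library totals ranged from 18.28 M to 51.24 M expected counts in Tregs and from 31.31 M to 51.95 M in Tcons. The isotype PBS Tregs were the shallowest group, at 18.28 M to 34.58 M. The sum of 5 Treg markers (Foxp3, Il2ra, Ikzf2, Ctla4 and Tnfrsf18) was 2409 to 4546 CPM (counts scaled to each library's total) in Treg libraries and 332 to 1419 CPM in Tcon libraries, so the cell labels held in every library. Markers of other cells were present at varying levels in the Treg libraries: 5 B cell markers summed to 24.1 to 544.4 CPM, 3 plasma cell markers to 174.0 to 3344 CPM and 5 myeloid markers to 4.01 to 468.6 CPM. The highest B cell and myeloid sums among Tregs stood in isotype PBS replicate 1 (544.4 and 88.9 CPM) and MHC II block WT IL-2 replicate 1 (517.9 and 468.6 CPM), and calls on the members that changed without this pair of libraries are given with both values. In bulk RNA, fewer cells of a type and less RNA per cell cannot be told apart.

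Levels between genes were compared by FPKM, fragment counts scaled to gene length and to library size. In isotype PBS Tregs, p27 mRNA (Cdkn1b) was the most abundant at a mean of 106.1 FPKM, followed by Ccnd3 (67.6), Cdk4 (56.0), Ccnd2 (48.0), Cdkn2d (24.7), Rb1 (19.8), Cdk6 (9.41), Cdkn1a (9.20), Cdkn2c (7.23) and Ccnd1 (1.32). Resting splenic Tregs thus held their D cyclin mRNA almost wholly as Ccnd3 and Ccnd2, with Ccnd1 at a mean of 1.12% of the D cyclin FPKM, and their CDK4/6 mRNA mainly as Cdk4, at 85.6%. In Tregs given the 3x mutein under MHC II block the order changed: Ccnd3 (110.4 FPKM) and Ccnd2 (78.6) stood above Cdkn1b (77.9), Cdkn2d reached 56.9, and Cdkn2c reached 29.1, above Rb1 (20.6), Cdkn1a (20.2) and Cdk6 (13.6). Neighbours whose FPKM ranges overlapped over the 4 libraries, so that their order was within the spread, were Cdk4 and Ccnd2, Rb1 and Cdkn2d, and Cdk6 and Cdkn1a with isotype and PBS, and Ccnd2 and Cdkn1b, Cdk4 and Cdkn2d, and Rb1 and Cdkn1a with block and 3x.

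Sequence upstream of the members' RefSeq transcription starts (build GRCm38.p6, 250 bases per start) was available for 7 of the 10, with 10 starts in all. Cdk4 is shown because its window held an unusual number of E-boxes, and the starts of Cdkn1a because its level under MHC II block lay below that with isotype in some treatments and above it in others. Capitals mark exact matches, on either strand, to the E-box CACGTG or the GC box GGGCGG, motifs bound by bHLH factors such as Myc and by Sp1-like factors, which do not overlap here. The Cdk4 window spans chr10:127063285-127063534 (plus strand), and the Cdkn1a windows span chr17:29090729-29090978 and chr17:29093519-29093768 (plus strand).
Cdk4: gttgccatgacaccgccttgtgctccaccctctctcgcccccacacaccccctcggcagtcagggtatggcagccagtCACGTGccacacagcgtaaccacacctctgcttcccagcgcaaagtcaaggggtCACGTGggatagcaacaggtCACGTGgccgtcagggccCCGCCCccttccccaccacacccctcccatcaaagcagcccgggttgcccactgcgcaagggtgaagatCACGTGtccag
Cdkn1a start 1: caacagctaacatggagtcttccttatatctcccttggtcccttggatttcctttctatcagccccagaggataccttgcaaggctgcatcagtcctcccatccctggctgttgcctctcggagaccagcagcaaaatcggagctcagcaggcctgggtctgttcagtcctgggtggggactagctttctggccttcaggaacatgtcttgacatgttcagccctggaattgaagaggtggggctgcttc
Cdkn1a start 2: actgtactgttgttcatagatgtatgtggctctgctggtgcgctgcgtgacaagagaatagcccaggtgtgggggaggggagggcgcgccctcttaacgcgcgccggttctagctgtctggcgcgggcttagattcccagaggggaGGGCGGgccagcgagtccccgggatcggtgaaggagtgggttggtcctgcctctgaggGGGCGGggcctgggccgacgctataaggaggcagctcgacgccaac
The Cdk4 window held 4 E-boxes, which began 172, 118, 98 and 11 bases before the start, and 1 GC box. At least 1 E-box was found in 6.02% of all 32851 promoter windows in the same table and at least 4 in 0.0213%, which is 7 windows. Cdk6 held 1 E-box, 220 bases before its start. GC boxes, found at least once in 32.7% of all windows and at least 3 times in 8.47%, numbered 2 at start 2 of Cdkn1a, none at its start 1, 1 at Cdkn1b, 2 and 1 at the starts of Ccnd3, and 3 each at start 1 of Cdkn2c and at Cdkn2d. No member window matched the STAT element TTCNNNGAA (7.02% of all windows) or the E2F sites TTTCCCGC, TTTCGCGC, TTTGCCGC or TTTGGCGC (1.86%). No exact match to the p53 element was found either, but its long pattern matched only 3 of all windows (0.00913%). A site that departs from that pattern by 1 base was not counted. The windows, that of Cdkn1a start 1 included, may therefore hold such p53 sites. Only start 1 of Ccnd3, 243 bases upstream, matched the forkhead site GTAAACA (3.17%). Such matches describe these windows only.

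Each IL-2 molecule was next compared with PBS within each antibody arm in Tregs. Throughout, p-values come from quasi-likelihood fits in edgeR and were adjusted over every gene tested by the Benjamini-Hochberg method, a call is an adjusted p under 0.1, and fold changes are log2 values ± SE. With isotype antibody, 7 of the 10 members were called for WT IL-2, 6 for H16R and 8 for 3x, beside 52.2%, 64.2% and 63.6% of all 12392 genes tested. With MHC II block, 5, 6 and 8 were called, beside 35.6%, 66.5% and 73.0%. The share of members called was thus near that of all genes, and what set these genes apart from each other was direction and size. The median log2 fold change of the 10 was 0.09, 0.17 and 0.23 in the isotype arm and 0.15, 0.16 and 0.66 under block, against medians of -0.01, -0.01, -0.01, 0.02, -0.02 and -0.04 over all genes.

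Over these 6 contrasts, both INK4 genes rose in 6 of 6 and Cdk4 fell in 6 of 6. Cdkn1a rose in 4, Ccnd2 and Cdk6 in 3 each, and Rb1 in 2. Ccnd3 rose in 3 and fell in 1, Ccnd1 rose in 1 and fell in 3, and Cdkn1b rose in 1 and fell in 1. Read by direction, 4, 4 and 6 members rose with isotype and 3, 2 and 2 fell, beside 26.0%, 31.4% and 31.3% of all genes that rose and 26.2%, 32.8% and 32.3% that fell. Under block, 4, 5 and 6 rose and 1, 1 and 2 fell, beside 21.9%, 32.7% and 34.7% of all genes that rose and 13.7%, 33.8% and 38.3% that fell. The 3 contrasts of an arm share their 4 PBS libraries and are not independent of each other.

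**Figure D1:**
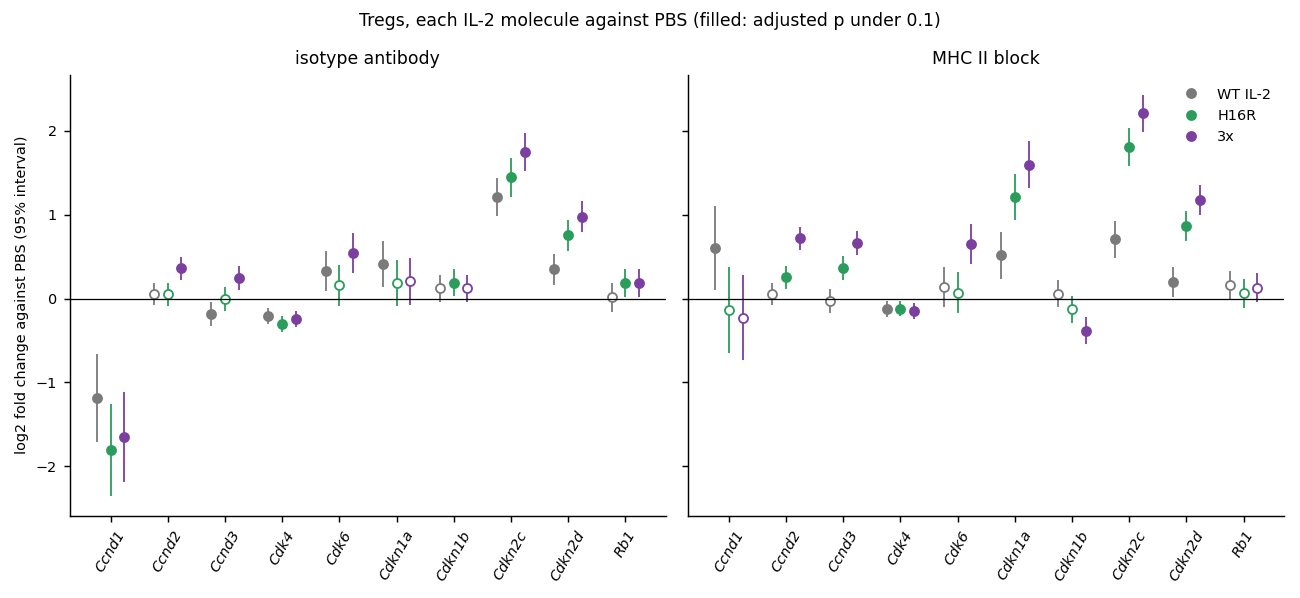
Log2 fold change of each of the 10 genes in Tregs (y axis, bars are 95% intervals) for WT IL-2, H16R and 3x against PBS, with isotype antibody on the left and MHC II block on the right, n = 4 libraries per group. Filled points passed an adjusted p under 0.1; Cdkn2c stands highest of the 10 in each of the 6 contrasts, from 0.70 to 2.21, and Cdk4 lies below 0 in every one.

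**Figure D2:**
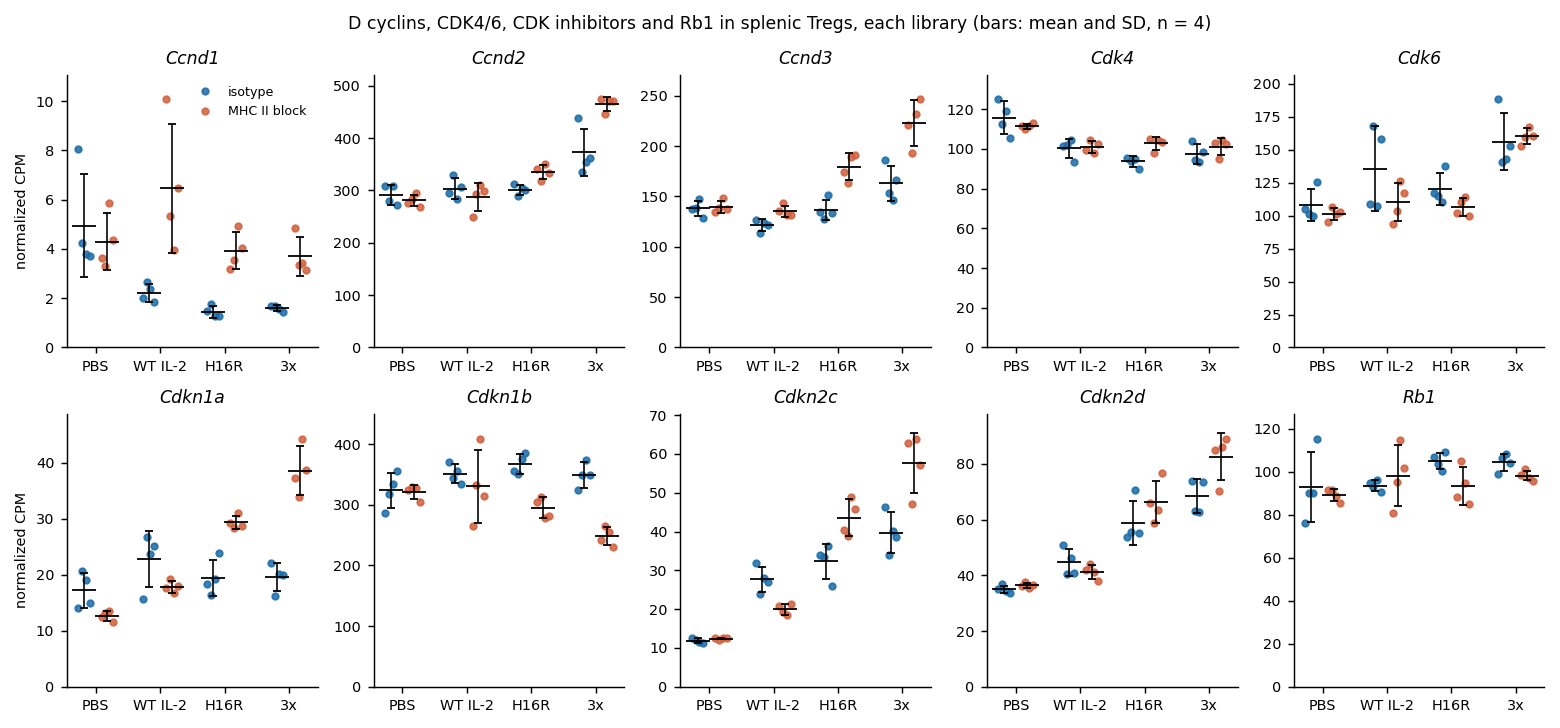
Normalized CPM (y axis, from 0) of each gene in every Treg library by treatment (x axis), with isotype and MHC II block in different colours; bars give the mean and SD of 4 libraries. Cdkn2c and Cdkn2d rise from PBS through WT IL-2 and H16R to 3x in both arms, whereas Cdkn1a separates the arms with H16R and 3x.

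Ccnd2 (chr6:127125162-127152193, minus strand) and Ccnd3 (chr17:47505051-47599691, plus strand), the D cyclins that make up nearly all of this class in T cells, moved with the most attenuated mutein. Gene positions throughout are those of GENCODE vM21 on GRCm38, over the whole gene. In the isotype arm, Ccnd2 stood at 309, 279, 308 and 272 CPM with PBS and at 438, 335, 354 and 362 CPM with 3x. Under block it stood at 277, 284, 295 and 269 CPM with PBS and at 474, 446, 470.5 and 470.3 CPM with 3x. The 3x libraries lay above the PBS libraries without overlap in both arms, and the change was 0.36 ± 0.07 (adjusted p = 3.6e-05) with isotype and 0.72 ± 0.07 (2.03e-10) with block. H16R raised Ccnd2 under block (0.25 ± 0.07, adjusted p = 0.00157), whereas the values of H16R with isotype (0.05 ± 0.07) and of WT IL-2 in both arms (0.05 ± 0.07 in each) did not pass.

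Ccnd3 fell in 1 contrast and rose in 3. With isotype it stood at 128.7 to 147.7 CPM with PBS, 113.2 to 126.9 with WT IL-2, 127.9 to 151.3 with H16R and 146.0 to 185.8 with 3x. All 4 WT IL-2 libraries lay below all 4 PBS libraries, and the 3x and PBS ranges overlapped slightly. The fall with WT IL-2 was 0.19 on the log2 scale (adjusted p = 0.0313), and it was lost without isotype PBS replicate 3 or isotype WT IL-2 replicate 2, where the adjusted p reached 0.157. The rise with 3x was 0.25 ± 0.07 (adjusted p = 0.00346). Under block, Ccnd3 stood at 134.2 to 148.5 CPM with PBS, 131.1 to 143.3 with WT IL-2, 163.4 to 191.6 with H16R and 192.9 to 246.4 with 3x. There, H16R and 3x lay wholly above PBS and in that order, with changes of 0.36 ± 0.07 (adjusted p = 6.86e-05) and 0.67 ± 0.07 (2.46e-09).

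Ccnd1 (chr7:144929931-144939925, minus strand), a D cyclin that lymphocytes make little of, behaved unlike its relatives. In the isotype arm it stood at 8.05, 4.23, 3.78 and 3.72 CPM with PBS and at 2.00, 2.64, 2.39 and 1.83 CPM with WT IL-2. H16R libraries held 1.48, 1.76, 1.26 and 1.27 CPM, and 3x libraries 1.66, 1.69, 1.57 and 1.43 CPM. PBS replicate 1 was the highest of its group by far, yet every treated library lay below every PBS library. Ccnd1 fell by 1.19 ± 0.26, 1.80 ± 0.27 and 1.65 ± 0.26 on the log2 scale with WT IL-2, H16R and 3x (adjusted p at most 0.000441).

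Under MHC II block Ccnd1 did not fall. It stood at 3.64, 3.30, 5.88 and 4.36 CPM with PBS, at 10.1, 5.34, 3.96 and 6.46 CPM with WT IL-2, at 3.19, 3.53, 4.93 and 4.03 CPM with H16R and at 4.86, 3.37, 3.43 and 3.14 CPM with 3x. The groups overlapped throughout. A rise with WT IL-2 of 0.60 ± 0.25 passed (adjusted p = 0.0676), but without isotype PBS replicate 1 and MHC II block WT IL-2 replicate 1 together it was 0.29 (adjusted p = 0.254), and it was also lost without any of 5 single libraries. With block, H16R and 3x gave -0.14 ± 0.25 and -0.23 ± 0.25, neither past the threshold.

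Markers of other cells moved with Ccnd1. In the isotype arm, all 5 B cell markers fell with each molecule, as did 3, 4 and 4 of the 4 myeloid markers tested and 1, 3 and 3 of the 3 plasma cell markers with WT IL-2, H16R and 3x. The myeloid sum was 14.9 to 88.9 CPM in isotype PBS Tregs, 7.35 to 14.0 with WT IL-2, 4.01 to 5.99 with H16R and 5.10 to 6.33 with 3x, and it was 21.7 to 468.6 CPM with WT IL-2 under block. Across the 32 Treg libraries, Pearson's r of log2 Ccnd1 with the log2 sum was 0.917 for myeloid, 0.852 for B cell and 0.863 for plasma cell markers, and across the 16 Tcon libraries 0.924, 0.152 and 0.531. These libraries share their treatments and depth, so r is a description. None of the B cell, myeloid or plasma cell markers was at 0 in any library, and the part of such cells in the Ccnd1 values was not tested.

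**Figure D3:**
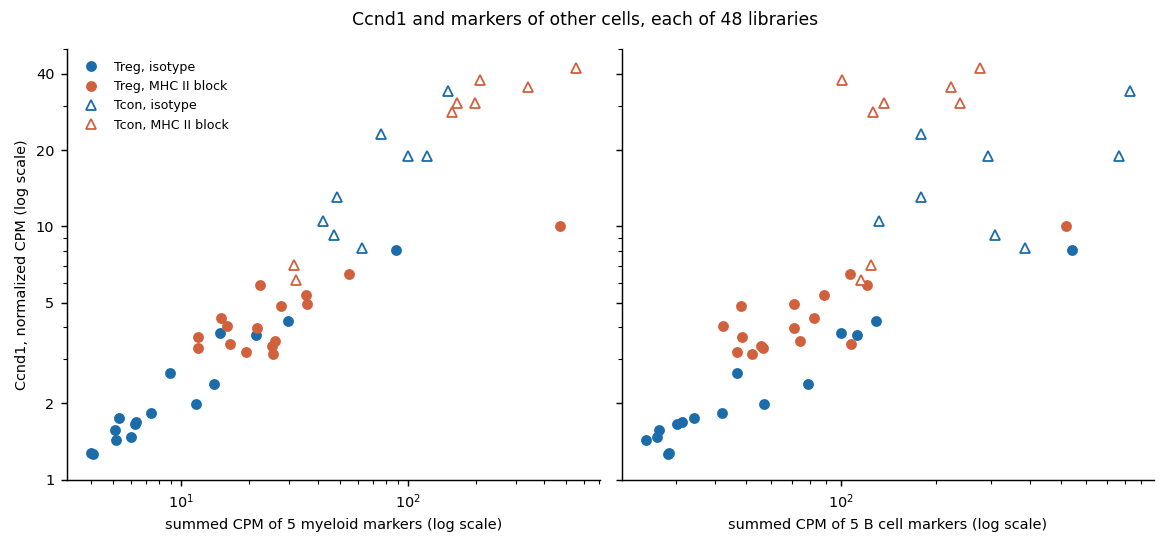
Normalized CPM of Ccnd1 (y axis, log scale) against the summed CPM of 5 myeloid and of 5 B cell markers (x axes, log scale) in each of 48 libraries; filled points are Tregs, open points Tcons, colours the antibody arm. Ccnd1 climbs with the myeloid sum in both cell types (r = 0.917 and 0.924 on the log2 scale), while in Tcons it does not follow the B cell sum (r = 0.152).

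Cdk4 (chr10:127063534-127067920, plus strand), the main CDK4/6 kinase mRNA in these cells, fell slightly, with a call in each of the 6 contrasts. With isotype, Cdk4 stood at 105.6 to 124.9 CPM with PBS, 93.4 to 104.2 with WT IL-2, 89.8 to 95.5 with H16R and 93.2 to 103.9 with 3x. All 12 treated libraries lay below all 4 PBS libraries. The changes were -0.21 ± 0.05 (adjusted p = 0.000534), -0.30 ± 0.05 (2.87e-06) and -0.24 ± 0.05 (7.51e-05). Under block, PBS libraries held 109.9 to 113.1 CPM and the treated ones 94.9 to 105.1 CPM, again with no overlap, and Cdk4 fell by 0.12, 0.12 and 0.15 on the log2 scale (adjusted p = 0.0447, 0.0277 and 0.00527). Each of these 3 calls was lost under some setting. That with WT IL-2 was lost without MHC II block PBS replicate 4 or MHC II block WT IL-2 replicate 3 and with thinned counts (adjusted p = 0.103). With all biotypes kept, the value was -0.07 for H16R (adjusted p = 0.268) and -0.08 for 3x (0.186), and with no CPM filter that for H16R was -0.09 (0.157). Markers of other cells moved with Cdk4 over the 32 Treg libraries. Pearson's r of log2 values was 0.610 for B cell, 0.507 for plasma cell, 0.422 for myeloid and 0.399 for NK cell sums. For the Treg marker sum it was -0.667. These values are a description, and the part of other cells in the Cdk4 values was not tested.

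Cdk6 (chr5:3341485-3531008, plus strand), the alternative partner kinase, moved the other way, most clearly with 3x. Isotype libraries held 105.1, 101.6, 99.98 and 125.5 CPM with PBS and 188.2, 140.7, 143.3 and 152.5 CPM with 3x. Under block it stood at 95.4, 106.4, 101.1 and 102.9 CPM with PBS and at 152.6, 159.8, 167.5 and 160.5 CPM with 3x. All 3x libraries were above all PBS libraries in each arm, and Cdk6 rose by 0.54 ± 0.12 (adjusted p = 0.000268) and 0.65 ± 0.12 (2.03e-05). WT IL-2 libraries of the isotype arm split, with 108.9 and 107.2 CPM in replicates 1 and 3a and 168.3 and 158.5 CPM in replicates 2 and 3b. Their rise of 0.33 ± 0.12 (adjusted p = 0.0232) was lost without either replicate 2 or 3b, which gave adjusted p up to 0.114. Cdk4 accordingly made up 85.6% ± 2.04 (SD, n = 4) of the Cdk4 plus Cdk6 FPKM in isotype PBS Tregs and 77.9% ± 1.55 with 3x, and 86.0% ± 0.52 and 78.0% ± 0.91 under block.

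Cdkn2c (chr4:109660876-109667189, minus strand), which encodes the INK4 inhibitor p18, gave the largest rise among the 10 in each contrast. In the isotype arm its level was 12.6, 12.2, 11.6 and 11.2 CPM with PBS and 31.8, 23.9, 28.0 and 27.0 CPM with WT IL-2. With H16R it was 34.0, 33.4, 36.3 and 25.9 CPM, and with 3x 46.5, 33.8, 40.0 and 38.7 CPM. PBS libraries differed little and lay far below all 12 treated libraries, while neighbouring molecules overlapped. The rises were 1.21 ± 0.11 (adjusted p = 1.53e-09), 1.44 ± 0.11 (1.89e-11) and 1.75 ± 0.11 (6.76e-13).

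With MHC II block, the steps between molecules widened. Cdkn2c stood at 12.6, 12.1, 12.6 and 12.5 CPM with PBS and at 20.9, 19.2, 18.5 and 21.4 CPM with WT IL-2. With H16R it stood at 40.3, 38.9, 49.0 and 45.9 CPM, and with 3x at 62.9, 47.1, 63.9 and 57.2 CPM. PBS, WT IL-2 and H16R did not overlap, and 3x overlapped H16R through its replicate 2. The rises were 0.70 ± 0.11 (adjusted p = 2.74e-05), 1.81 ± 0.11 (1.36e-13) and 2.21 ± 0.11 (9.89e-16).

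Cdkn2d (chr9:21288410-21291407, minus strand), which encodes the INK4 inhibitor p19, followed in the same order at smaller size. In the isotype arm its level was 34.9, 36.8, 34.5 and 33.7 CPM with PBS, 50.8, 40.6, 46.1 and 40.9 CPM with WT IL-2, 53.6, 55.7, 70.5 and 55.3 CPM with H16R and 73.9, 63.2, 62.8 and 73.4 CPM with 3x. Under block it was 36.1, 37.6, 35.5 and 36.7 CPM with PBS, 41.9, 43.9, 41.1 and 38.0 CPM with WT IL-2, 66.1, 58.8, 63.5 and 76.6 CPM with H16R and 85.0, 70.2, 86.1 and 89.0 CPM with 3x. All treated libraries exceeded the PBS libraries of their arm, and only H16R and 3x shared part of their range. Cdkn2d rose by 0.35 ± 0.09, 0.75 ± 0.09 and 0.98 ± 0.09 with isotype (adjusted p = 0.00231, 4.45e-08 and 4.83e-10). Under block, H16R and 3x gave 0.86 ± 0.09 (adjusted p = 2.9e-09) and 1.17 ± 0.09 (3.71e-12), whereas WT IL-2 gave 0.20 ± 0.09 at an adjusted p of 0.0969, a call lost in 21 of 32 fits that left out 1 library each and, at 0.18 (adjusted p = 0.173), without isotype PBS replicate 1 and MHC II block WT IL-2 replicate 1.

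Across the 32 Treg libraries, Cdkn2c and Cdkn2d followed each other with a Pearson's r of 0.947 on log2 CPM, the highest of any pair among the 10, as a description over libraries that share treatments. The Treg marker sum moved with them: it was 2627 to 3259 CPM in isotype PBS Tregs, 3921 to 4453 with WT IL-2, 4217 to 4320 with H16R and 4118 to 4329 with 3x, and its r with Cdkn2c was 0.816 and with Cdkn2d 0.751. Among these markers, Il2ra encodes the CD25 by which the cells were isolated. The study reports Il2ra, Foxp3 and Ctla4 among genes that IL-2 raised in Tregs, so the sum does not measure purity alone. Under block the sum was 2775 to 2986 CPM with PBS, 2409 to 3386 with WT IL-2, 3735 to 4114 with H16R and 3985 to 4546 with 3x. The part of Treg purity in the INK4 values was not tested.

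Cdkn1a (chr17:29090976-29100727, plus strand), the gene of p21 and a classic p53 target, rose little with isotype antibody and strongly under block. Isotype libraries held 14.2, 20.6, 19.1 and 15.0 CPM with PBS and 15.6, 26.8, 23.8 and 25.1 CPM with WT IL-2. H16R libraries held 18.3, 16.4, 19.3 and 23.9 CPM, and 3x libraries 22.1, 16.2, 20.2 and 20.0 CPM. All groups overlapped with PBS, and of the 3 changes that of WT IL-2 passed (0.41 ± 0.13, adjusted p = 0.0146), while H16R gave 0.19 ± 0.14 and 3x 0.20 ± 0.13.

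Under block, the levels of Cdkn1a formed steps. They were 12.4, 13.2, 13.5 and 11.6 CPM with PBS and 17.6, 19.3, 16.7 and 17.9 CPM with WT IL-2. They were 29.3, 28.3, 31.0 and 28.8 CPM with H16R and 37.3, 33.9, 44.4 and 38.8 CPM with 3x. No pair of these 4 groups overlapped. Cdkn1a rose by 0.51 ± 0.14 (adjusted p = 0.00535), 1.21 ± 0.14 (1.47e-08) and 1.60 ± 0.13 (3.7e-11).

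Cdkn1b (chr6:134920401-134925513, plus strand), the gene of p27, was the most abundant inhibitor mRNA and moved by small amounts. Levels with isotype were 287.3 to 355.7 CPM with PBS, 335.2 to 369.9 with WT IL-2, 351.4 to 385.2 with H16R and 323.7 to 374.7 with 3x. A rise with H16R passed (0.19 ± 0.08, adjusted p = 0.0425), although its range overlapped with PBS, and it was lost without isotype PBS replicate 1 or isotype H16R replicate 4. It was also lost with total counts alone and with both limma fits of FPKM (adjusted p up to 0.349). Over the alternatives its value went down to 0.08. Under block the levels were 305.1 to 329.2 CPM with PBS, 265.3 to 409.2 with WT IL-2, 279.1 to 313.6 with H16R and 230.5 to 264.9 with 3x. Here 3x libraries lay wholly below PBS, a fall of 0.38 ± 0.08 on the log2 scale (adjusted p = 0.000101). H16R under block gave -0.13 ± 0.08 (adjusted p = 0.162), which passed at the same size (0.0826) without isotype PBS replicate 1 and MHC II block WT IL-2 replicate 1.

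Rb1 (chr14:73183673-73325822, minus strand), the substrate that these kinases act on, hardly moved. Its levels were 76.1 to 115.4 CPM in isotype PBS Tregs, 90.7 to 96.3 with WT IL-2, 100.2 to 109.0 with H16R and 98.8 to 108.1 with 3x, all within the PBS range. Values of 0.19 ± 0.08 with H16R (adjusted p = 0.0574) and 0.18 ± 0.08 with 3x (0.062) passed, but each was lost without any of 5 single libraries, and without isotype PBS replicate 1 and MHC II block WT IL-2 replicate 1 both were 0.10 (adjusted p = 0.214 and 0.23). Under block, no contrast with PBS passed (0.16, 0.06 and 0.13, each ± 0.08), but without the same pair of libraries WT IL-2 gave a rise of 0.23 (adjusted p = 0.0152) and 3x one of 0.13 (0.0798).

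Summed by class, the inhibitor transcripts changed in makeup more than in amount. The 4 inhibitors summed to 147.2 ± 10.2 FPKM (SD, n = 4) in isotype PBS Tregs and to 184.9 ± 6.25 with 3x, and under block to 145.3 ± 3.06 and 184.0 ± 9.25. Within that sum, the INK4 share was 21.8% ± 1.75 with PBS, 28.3% ± 1.73 for WT IL-2, 32.2% ± 2.41 for H16R and 37.1% ± 2.65 for 3x in the isotype arm. Under block it was 23.0% ± 0.73, 27.3% ± 3.25, 39.2% ± 2.74 and 46.6% ± 3.35. Cdkn1b fell as a share over the same groups from 72.0% ± 2.05 with isotype and PBS to 42.4% ± 3.62 with block and 3x. The D cyclin sum was 116.9 ± 7.09 FPKM with PBS and 139.8 ± 15.0 with 3x in the isotype arm, and 117.2 ± 4.83 and 189.9 ± 13.2 under block, so that with 3x it stood below the inhibitor sum with isotype and near it with block.

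**Figure D4:**
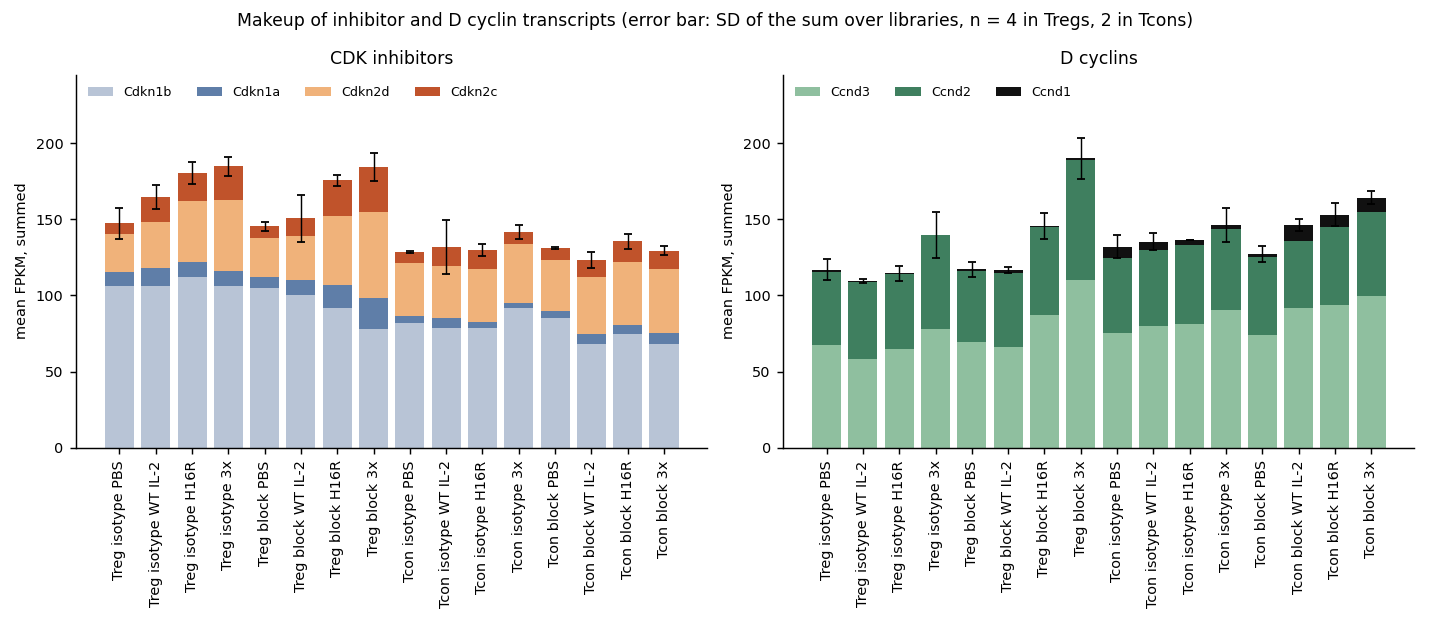
Mean FPKM of the 4 inhibitors and of the 3 D cyclins, stacked (y axis from 0), in each of 16 groups (x axis); the error bar is the SD of the summed FPKM over libraries (n = 4 in Tregs, 2 in Tcons). In Tregs the Cdkn2c and Cdkn2d segments grow from 21.8% to 46.6% of the inhibitor sum between isotype PBS and MHC II block 3x, while Cdkn1b shrinks from 72.0% to 42.4%.

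The antibody comparison asked what MHC II block changed within each treatment. With PBS, 1 of the 10 members was called (14.1% of all genes), and 5 (33.6%), 6 (30.7%) and 7 (54.1%) were called for WT IL-2, H16R and 3x. In the PBS mice, the member called was Cdkn1a, lower under block at 11.6 to 13.5 CPM than with isotype at 14.2 to 20.6 CPM (-0.44 ± 0.14, adjusted p = 0.0452), a call lost without any of 3 single libraries. Cdkn1a was also lower under block with WT IL-2 (-0.34 ± 0.13, adjusted p = 0.0573) and was higher with H16R (0.58 ± 0.13, 0.00256) and 3x (0.95 ± 0.13, 1.26e-06). The call with WT IL-2 was lost without any of 4 single libraries and under 4 of 13 alternatives.

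Cdkn2c was lower under block with WT IL-2 (-0.45 ± 0.10, adjusted p = 0.0018) and higher with H16R (0.42 ± 0.10, 0.00504) and 3x (0.52 ± 0.10, 0.000151). Ccnd3 was higher under block with every molecule, by 0.17 ± 0.07 (adjusted p = 0.065), 0.38 ± 0.07 (0.000373) and 0.43 ± 0.07 (1.48e-05), and Ccnd2 (0.30 ± 0.07, 0.000553) and Cdkn2d (0.25 ± 0.08, 0.0169) with 3x. Cdkn1b was lower under block with H16R (-0.32 ± 0.08, 0.0049) and 3x (-0.51 ± 0.08, 7.26e-06). Cdk4 was higher with H16R (0.13 ± 0.05, 0.0479) and Cdk6 lower with WT IL-2 (-0.29 ± 0.12, 0.0695). The Cdk4 call was lost without any of 3 single libraries and with thinned counts (adjusted p = 0.185), and the Cdk6 call without any of 4 single libraries. The Ccnd3 call with WT IL-2 was lost without any of 6 single libraries and under 5 of 13 alternatives. The WT IL-2 calls of Ccnd3 and Cdk6 were also lost without isotype PBS replicate 1 and MHC II block WT IL-2 replicate 1 (adjusted p = 0.123 and 0.205). Rb1 passed in no treatment (-0.06, 0.09, -0.18 and -0.11 with PBS, WT IL-2, H16R and 3x, each ± 0.08). Without that pair of libraries, Rb1 passed with WT IL-2 (0.16, adjusted p = 0.0966) and H16R (-0.18, 0.0417), as did Ccnd2 with H16R (0.15, 0.0647, against 0.105 over all libraries).

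Ccnd1 was higher under block with all 3 molecules, by 1.56 ± 0.25, 1.44 ± 0.26 and 1.20 ± 0.26 (adjusted p at most 0.000468). Myeloid markers moved with it: of 4 tested, 4 (WT IL-2), 2 (H16R) and 2 (3x) were higher under block, as were 5, 1 and 3 of 5 B cell and all 3 plasma cell markers with each molecule. With PBS, Ccnd1 gave -0.22 ± 0.25 and all 5 B cell markers were lower under block.

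Whether the IL-2 effect itself differed between the arms was tested as an interaction, the molecule's change against PBS under block minus that with isotype. Of the 10 members, 2 were called for WT IL-2 (19.7% of all genes), 5 for H16R (19.1%) and 6 for 3x (39.0%). For Cdkn1a the interaction was 0.11 ± 0.19 with WT IL-2, 1.02 ± 0.19 with H16R (adjusted p = 0.00127) and 1.39 ± 0.19 with 3x (7.95e-06). For Cdkn2c it was -0.51 ± 0.16 with WT IL-2 (adjusted p = 0.0279) and 0.46 ± 0.15 with 3x (0.0253), so that its rise was smaller under block with the wild-type molecule and larger with the most attenuated. The H16R value of 0.36 ± 0.16 did not pass (adjusted p = 0.123).

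For the D cyclins, the interaction of Ccnd3 was 0.37 ± 0.10 with H16R (adjusted p = 0.0165) and 0.42 ± 0.10 with 3x (0.00239), and that of Ccnd2 0.36 ± 0.09 with 3x (0.00504). Cdkn1b gave -0.31 ± 0.11 with H16R (0.0635, lost without any of 7 single libraries) and -0.51 ± 0.11 with 3x (0.00129). For Ccnd1 the interaction was 1.78 ± 0.35, 1.67 ± 0.36 and 1.42 ± 0.36 with the 3 molecules, beside interactions of 4, 3 and 4 of the 4 myeloid markers and all 5 B cell markers in the same direction. For Cdkn2d, none passed (-0.15 ± 0.13, 0.11 ± 0.12 and 0.19 ± 0.12). Among the kinases, Cdk4 passed with H16R (0.18 ± 0.07, adjusted p = 0.0647), but gave 0.14 (0.163) without isotype PBS replicate 1 and MHC II block WT IL-2 replicate 1, and Cdk6 did not pass (-0.20, -0.09 and 0.10, each ± 0.17). Rb1 did not pass either (0.14, -0.12 and -0.05, each ± 0.12), although without that pair of libraries its value with WT IL-2 was 0.30 (adjusted p = 0.0456). Genes with block-dependent changes therefore included both Cip/Kip inhibitors, in opposite directions.

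The molecules were then compared with each other at the same dose and day, in 3 pairs per arm and 60 member tests in all. With isotype, H16R and WT IL-2 differed in 2 of 10 members (18.6% of all genes), 3x and WT IL-2 in 4 (34.7%) and 3x and H16R in 4 (11.5%), and each of these 10 differences was higher in the more attenuated molecule, beside 8.87%, 16.9% and 5.76% of all genes called higher. Without isotype PBS replicate 1 and MHC II block WT IL-2 replicate 1 there were 14 differences, 12 higher and 2 lower, and with fits of only the groups compared also 12 higher and 2 lower. Cdkn2d was 0.40 ± 0.09 higher with H16R than with WT IL-2 (adjusted p = 0.0029) and 0.63 ± 0.09 higher with 3x (6.06e-06). Cdkn2c was 0.53 ± 0.10 higher with 3x than with WT IL-2 (adjusted p = 0.000299), and its difference between H16R and WT IL-2 of 0.23 (95% interval 0.02 to 0.44) did not pass (0.138). Between 3x and H16R, Cdkn2c differed by 0.30 ± 0.10 (adjusted p = 0.0659), a call lost without any of 3 single libraries, and Cdkn2d by 0.22 (95% interval 0.05 to 0.40), which did not pass.

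The D cyclins also separated 3x from the others in this arm. Ccnd2 was 0.31 ± 0.07 higher with 3x than with either WT IL-2 (adjusted p = 0.000924) or H16R (0.00461), and Ccnd3 was 0.44 ± 0.07 (4.28e-05) and 0.26 ± 0.07 (0.0215) higher. The difference of Ccnd3 between H16R and WT IL-2 (0.18 ± 0.07, 0.0934) was lost in 16 of 32 fits that left out 1 library. The differences of Ccnd3 and of Cdk6 (0.39 ± 0.12, 0.0384) between 3x and H16R were lost without isotype 3x replicate 1 (adjusted p = 0.144 and 0.209). Cdkn1a did not pass between any pair with isotype, and the 95% interval of 3x minus H16R ran from -0.25 to 0.28. For Ccnd1 over all libraries, H16R and 3x gave -0.62 ± 0.27 (adjusted p = 0.128) and -0.47 ± 0.26 (0.195) against WT IL-2, and the 3 intervals lay between -1.16 and 0.71. Without isotype PBS replicate 1 and MHC II block WT IL-2 replicate 1, Ccnd1 was called lower with H16R (-0.62, adjusted p = 0.0306) and 3x (-0.47, 0.0647) than with WT IL-2. For Cdk4 the 3 intervals lay between -0.19 and 0.16, and for Cdkn1b between -0.22 and 0.23.

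Under block, the molecules differed in 7 (57.5% of all genes), 8 (68.7%) and 7 (25.2%) members for H16R against WT IL-2, 3x against WT IL-2 and 3x against H16R. H16R stood above WT IL-2 for Cdkn2c (1.1 ± 0.10, adjusted p = 8.91e-09), Cdkn1a (0.70 ± 0.13, 0.000116), Cdkn2d (0.66 ± 0.09, 9.92e-07), Ccnd3 (0.39 ± 0.07, 6.88e-05) and Ccnd2 (0.20 ± 0.07, 0.0134), and Cdk6 gave -0.06 ± 0.12, which did not pass. Cdkn1b was lower with H16R (-0.18 ± 0.08, adjusted p = 0.0533), a call lost without any of 6 single libraries. Between 3x and WT IL-2, Cdkn2c differed by 1.50 ± 0.10 (adjusted p = 4.87e-12), Cdkn1a by 1.08 ± 0.13 (7.74e-08), Cdkn2d by 0.97 ± 0.09 (4.64e-10), Ccnd3 by 0.69 ± 0.07 (4.09e-09), Ccnd2 by 0.66 ± 0.07 (3.25e-09) and Cdk6 by 0.51 ± 0.12 (0.000459). Cdkn1b was 0.44 lower (-0.44 ± 0.08, 2.77e-05). Between the muteins, 3x stood above H16R for Cdk6 (0.58 ± 0.12), Ccnd2 (0.46 ± 0.07), Cdkn2c (0.40 ± 0.10), Cdkn1a (0.39 ± 0.13, lost without MHC II block 3x replicate 3 and with thinned counts), Ccnd3 (0.31 ± 0.07) and Cdkn2d (0.31 ± 0.09), and below it for Cdkn1b (-0.26 ± 0.08). Cdk4 and Rb1 passed in none of the 6 pairs of molecules over all libraries, and Rb1 passed in 3 of them without isotype PBS replicate 1 and MHC II block WT IL-2 replicate 1. With isotype these were H16R (0.17, adjusted p = 0.0713, and over all libraries 0.17 and 0.18) and 3x (0.17, 0.049, and over all libraries 0.17 and 0.133) against WT IL-2. Under block it was H16R against WT IL-2 (-0.17, 0.0462, and over all libraries -0.09 and 0.347). The 95% intervals of Cdk4 under block lay between -0.13 and 0.10.

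Ccnd1 under block was lower with H16R (-0.74 ± 0.25, adjusted p = 0.015) and 3x (-0.83 ± 0.24, 0.00479) than with WT IL-2, beside a fall of all 5 B cell, all 4 myeloid and all 3 plasma cell markers in both pairs. Without MHC II block WT IL-2 replicate 1, the H16R difference was lost (adjusted p = 0.126).

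In Tcons, with 2 mice per group, the arms were pooled, with antibody as a covariate. Against PBS, 3 members were called with WT IL-2 (27.2% of 12526 genes tested), 2 with H16R (31.1%) and 3 with 3x (9.88%), and all of these were rises, beside 14.8%, 16.2% and 4.71% of all genes that rose. Cdkn2c stood at 10.6 to 14.1 CPM in the 4 PBS Tcon libraries, 19.0 to 22.1 with WT IL-2, 19.0 to 25.3 with H16R and 12.0 to 21.1 with 3x. WT IL-2 and H16R lay wholly above PBS, whereas 3x split by arm, with 14.3 and 12.0 CPM for isotype and 20.0 and 21.1 CPM for block. The rises of Cdkn2c were 0.72 ± 0.13 (adjusted p = 0.00332), 0.77 ± 0.13 (0.00167) and 0.40 ± 0.13 (0.0821). Markers of other cells moved with these values: all 3 plasma cell and 2 of 3 NK cell markers rose with WT IL-2 and H16R, and 2 NK cell markers with 3x. The plasma cell sum was 785.5 to 1306 CPM with PBS, 1461 to 2813 with WT IL-2 and 1725 to 1928 with H16R, and with 3x it was 385.7 and 493.7 CPM for isotype and 869.3 and 1255 CPM for block. Over the 16 Tcon libraries, Pearson's r of log2 Cdkn2c was 0.669 with the plasma cell and 0.621 with the NK cell sum, as a description, and the part of these cells was not tested.

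Ccnd3 rose in Tcons with each molecule, by 0.19 ± 0.07 (adjusted p = 0.0703), 0.20 ± 0.07 (0.0528) and 0.33 ± 0.07 (0.0184), and Cdkn2d with 3x (0.22 ± 0.06, 0.0622). Of the 8 Tcon calls against PBS, the 3 of Cdkn2c with WT IL-2, Cdkn2c with H16R and Ccnd3 with 3x were kept whichever library was left out, and the other 5 were each lost without at least 3 of the 16 libraries in turn. Cdkn1a rose with WT IL-2 (0.66 ± 0.25, adjusted p = 0.0855), with 7.48 and 16.0 CPM in the isotype libraries and 11.8 and 12.8 CPM under block beside 7.40 to 7.90 CPM with PBS. The library at 16.0 CPM, isotype WT IL-2 replicate 2, also held the highest Treg marker sum of all Tcons (1419 CPM, against 574.7 CPM in replicate 1), and without it the call was lost. Ccnd2, Cdk4, Cdk6, Cdkn1b and Rb1 passed with none of the 3 molecules.

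Ccnd1 gave no call in this model, which averages over the arms, but its levels differed between them. With isotype, Tcons held 34.2 and 19.0 CPM with PBS, 18.9 and 23.2 CPM with WT IL-2, 10.5 and 13.1 CPM with H16R and 9.28 and 8.24 CPM with 3x. Under block they held 7.07 and 6.15 CPM with PBS, 42.3 and 35.4 CPM with WT IL-2, 28.2 and 30.8 CPM with H16R and 37.8 and 30.6 CPM with 3x. H16R and 3x thus lay below PBS with isotype, and all 6 treated libraries lay above PBS under block. The myeloid sum moved with it, from 121.5 and 150.6 CPM with isotype and PBS to 42.4 to 62.8 CPM with H16R and 3x, and from 31.5 and 32.0 CPM with block and PBS to 157.3 to 548.8 CPM with the molecules. The difference between the arms was not tested in Tcons, nor was the part of myeloid cells in it.

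MHC II block against isotype over all Tcons called 4 members (28.9% of all genes). Rb1 fell (-0.33 ± 0.07, adjusted p = 0.0125), and Cdk4 (0.24 ± 0.08, 0.0529), Cdkn2c (0.27 ± 0.09, 0.0529) and Cdkn1a (0.47 ± 0.18, 0.0841) rose. Rb1 stood at 61.6 to 83.1 CPM under block and 71.4 to 99.7 CPM with isotype, with overlap. The 3 rises were each lost without any 1 of the 4 Tcon libraries of the 3x groups. In all, the Cdkn1a call was lost in 9 of 16 fits that left out 1 library, and also with no CPM filter. Both limma fits of FPKM lost the Cdkn2c call (adjusted p up to 0.138). Markers of other cells differed between the arms too, with 3 of 5 myeloid and 1 of 3 plasma cell markers higher and 4 of 5 B cell markers lower under block. Over the 16 Tcon libraries, r with the myeloid sum was 0.604 for Cdkn1a, 0.515 for Cdk4, 0.439 for Cdkn2c and -0.444 for Rb1, as a description, and the part of these cells was not tested.

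Treg and Tcon libraries of the same mouse were compared in a model with mouse as a block, 4 mice per treatment over both arms. With PBS, 3 of the 10 members differed (50.4% of 12844 genes tested), and 9 (63.5%), 8 (70.4%) and 9 (71.2%) differed for WT IL-2, H16R and 3x. Cdkn2c did not pass with PBS (-0.02 ± 0.10) and was higher in Tregs by 0.21 ± 0.09 with WT IL-2 (adjusted p = 0.0583), 0.79 ± 0.09 with H16R (1.66e-06) and 1.51 ± 0.09 with 3x (1.66e-09). It was higher in the Treg library of 1, 3, 4 and 4 of 4 mice. The WT IL-2 call was lost without isotype WT IL-2 mouse 1 or 2 (0.10 at the lowest, adjusted p up to 0.39) and without the mouse block (0.107).

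Cdkn2d crossed over. In PBS mice it was lower in Tregs (-0.39 ± 0.06, adjusted p = 0.00013), in 0 of 4 mice higher, and with WT IL-2 still lower (-0.16 ± 0.06, 0.04), a call lost without either mouse of the MHC II block WT IL-2 group. With H16R (0.18 ± 0.06, adjusted p = 0.0191) and 3x (0.39 ± 0.06, 4.75e-05) it was higher in Tregs, in 4 of 4 mice each, the H16R call being lost without isotype H16R mouse 2 (adjusted p = 0.102). It was also lost with total counts alone and with both limma fits of FPKM, at a value down to 0.07 (adjusted p up to 0.309). The change of the Treg to Tcon difference against PBS was 0.57 ± 0.09 with H16R (adjusted p = 0.000516) and 0.79 ± 0.09 with 3x (2.22e-05).

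**Figure D5:**
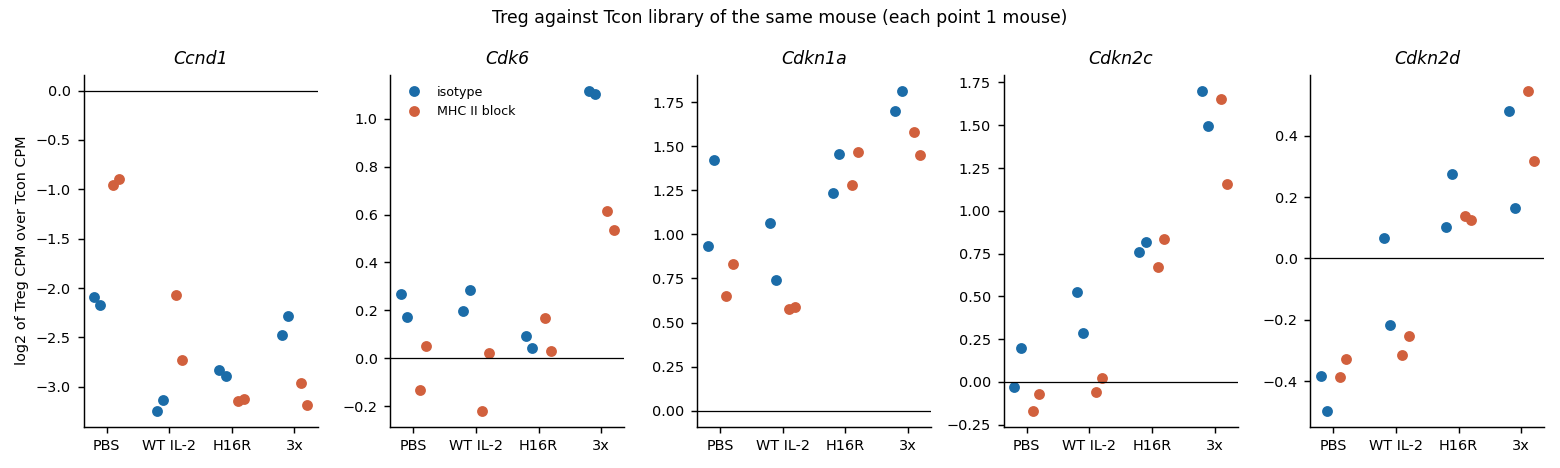
Log2 ratio of Treg over Tcon CPM in the same mouse (y axis, each point 1 mouse, 4 per treatment, colours the antibody arm) by treatment (x axis), with a line at 0 for equal levels. Cdkn2d lies below 0 in all PBS mice and above 0 in all 3x mice, and Cdkn2c reaches 1.16 to 1.70 with 3x.

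Cdkn1a was higher in Tregs in all 16 mice, by 0.96 ± 0.10, 0.75 ± 0.10, 1.38 ± 0.10 and 1.64 ± 0.10 with PBS, WT IL-2, H16R and 3x (adjusted p at most 1.27e-05). Its difference grew against PBS with H16R (0.42 ± 0.15, adjusted p = 0.0395) and 3x (0.68 ± 0.15, 0.00223). Ccnd1 was lower in Tregs in all 16 mice, by 1.57 on the log2 scale with PBS (-1.57 ± 0.23) and by 2.74 to 2.99 with the molecules, beside lower myeloid markers (2 of 5 with PBS, 4, 4 and 5 of 5 with the molecules) and B cell markers (4, 4, 5 and 5 of 5).

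The kinases parted as well. Cdk4 did not pass with PBS (-0.03 ± 0.10) and was lower in Tregs with WT IL-2, H16R and 3x (-0.39, -0.47 and -0.35, each ± 0.10, adjusted p at most 0.00763), and the change against PBS passed with H16R (-0.44 ± 0.15, 0.0324) and, without the mouse block, also with 3x (-0.31, 0.0819). Log2 ratios of Cdk4 over the 4 mice ran from -0.64 to 0.05 with WT IL-2, where 1 mouse was higher in Tregs. They ran from -0.56 to -0.46 with H16R and from -0.67 to -0.02 with 3x. Cdk4 with 3x stood in Tcons at 105.4 to 106.7 CPM with isotype and 150.7 to 153.2 CPM under block. The matching Treg groups held 93.2 to 103.9 and 94.9 to 104.3 CPM. Cdk6 was higher in Tregs with 3x (0.85 ± 0.09, adjusted p = 9.51e-07), and its change against PBS was 0.76 ± 0.13 (0.000489). The 3x mice split by arm for Cdk6, with log2 ratios of 1.12 and 1.1 with isotype and 0.61 and 0.53 under block. Ccnd2 was higher in Tregs with WT IL-2 (0.16 ± 0.07, adjusted p = 0.0592), in 4 of 4 mice, a call lost without any of 3 single mice and without the mouse block (0.129). It was also higher with 3x (0.42 ± 0.07, 6.43e-05), and Ccnd3 was lower with WT IL-2 (-0.37 ± 0.06, 3.59e-05) and H16R (-0.17 ± 0.06, 0.011). Cdkn1b was higher in Tregs with each molecule (0.46, 0.44 and 0.21, each ± 0.07), as was Rb1 (0.28, 0.39 and 0.48, each ± 0.11), whose WT IL-2 call was lost without any of 2 single mice. The Cdkn1b call with 3x was lost with total counts alone (adjusted p = 0.139).

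In all, the Treg to Tcon difference changed against PBS in 3 members with WT IL-2 (12.2% of all genes), 6 with H16R (40.6%) and 7 with 3x (46.5%). With 3x these were rises of Ccnd2, Cdk6, Cdkn1a, Cdkn2c, Cdkn2d and Rb1 (0.35 ± 0.15, adjusted p = 0.0878), and a fall of Ccnd1 (-1.19 ± 0.32, 0.00881). None of the 3 WT IL-2 calls was kept whichever mouse was left out: Ccnd1 and Ccnd3 were lost without any of 2 single mice and Cdkn1b without any of 6. Rb1 with 3x was lost without any of 6 single mice and under 7 of 11 alternatives, and with H16R Cdkn1a was lost without any of 2 and Cdkn1b without 1. Without the mouse block, Ccnd3 and Cdkn1b with WT IL-2 did not pass (-0.26 ± 0.10 and 0.31 ± 0.12), nor did Cdkn1a with H16R (adjusted p = 0.261).

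Around these 10 genes, other parts of the pathway were counted in Tregs against PBS, in the order isotype WT IL-2, H16R and 3x, then the same under block. The median log2 fold change over all genes lay between -0.04 and 0.02 in these contrasts. Of 4 further CDK inhibitors (Cdkn1c, Cdkn2a, Cdkn2b and Cdkn3), 3, 4, 4, 4, 4 and 4 rose and none fell, with medians of 1.22, 1.40, 1.74, 0.95, 2.37 and 3.17. Cdkn2a, which encodes p16 and ARF, rose by 2.24, 2.50, 2.89, 1.62, 3.06 and 4.15, from a mean of 0.47 CPM in isotype PBS Tregs to 3.73 CPM with isotype 3x and 8.62 CPM with block and 3x. Cdkn2b, its neighbour that encodes p15, rose by 1.68, 1.99, 1.94, 1.12, 3.13 and 4.04, from 0.58 CPM in isotype PBS Tregs. Both started near the detection filter of 0.5 CPM. All 4 INK4 genes of the mouse were thus called higher with each molecule in each arm, the call of Cdkn2d with WT IL-2 under block being lost under 10 of 13 alternatives.

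Of 12 pocket protein and E2F genes, 4, 4, 5, 5, 6 and 8 rose and 3, 4, 3, 1, 3 and 2 fell, with medians between 0.04 and 0.24. The activator E2f2 rose in all 6 contrasts (0.73, 0.99, 1.15, 0.52, 1.19 and 1.57), as did the atypical repressor E2f7 (0.62, 0.38, 1.14, 0.35, 0.90 and 1.56), while E2f5 fell in all (-0.62, -0.76, -0.74, -0.30, -0.78 and -0.81). E2f1, another activator, fell with isotype H16R (-0.37) and rose with H16R (0.54) and 3x (0.77) under block, with -0.20, -0.03 and 0.20 in the contrasts that did not pass. Rbl2, the gene of the pocket protein p130, rose in the isotype arm (0.20, 0.30 and 0.21). Of 8 genes of the cyclin E and A step, 4, 3, 5, 1, 3 and 5 rose and 2, 2, 2, 0, 1 and 2 fell, with medians between 0.07 and 0.29. Ccna2, the cyclin of S phase and G2, rose in all 6 (0.55, 0.64, 1.3, 0.42, 1.14 and 1.87) and Cdk2 in 5 (0.17, 0.29, 0.38, 0.32 and 0.44, with 0.11 for WT IL-2 under block not passing), whereas Mnat1, part of the CDK-activating kinase, fell in 5 (-0.20, -0.20 and -0.18 with isotype, -0.16 and -0.17 with H16R and 3x under block). Ccne1, a cyclin of the entry into S phase, rose with isotype 3x (0.58) and with H16R (0.61) and 3x (0.97) under block, and Cdc25a, a phosphatase that activates CDK2, fell with isotype (-0.24, -0.26 and -0.24).

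Of 16 proliferation genes, 10, 10, 11, 6, 12 and 14 rose and 3, 4, 3, 2, 0 and 0 fell, with medians of 0.39, 0.36, 0.89, 0.23, 0.89 and 1.52. Mki67, which encodes the Ki-67 antigen of cycling cells, rose by 0.76, 0.93, 1.47, 0.61, 0.97 and 1.63, and Birc5, which encodes survivin, by 0.71, 0.86, 1.49, 0.45, 1.43 and 2.13. Ccnb2, a mitotic cyclin, rose by 0.60, 0.76 and 1.48 with isotype. The largest falls in the list with isotype were those of Mcm5, by 0.25, 0.59 and 0.34 on the log2 scale, and Mcm2, by 0.24, 0.47 and 0.42, subunits of the replicative helicase. Under block compared with isotype, 14 of the 16 were higher with H16R and 15 with 3x, and 0 with WT IL-2, beside 15.4%, 27.2% and 18.2% of all genes that were higher. The plasma cell sum in H16R Tregs was 288.6 to 544.3 CPM with isotype and 672.3 to 1373 CPM under block. With 3x it was 174.0 to 264.0 and 711.6 to 1523 CPM, and with WT IL-2 753.2 to 898.9 and 1673 to 3344 CPM. The part of such cells in these values was not tested.

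Among 17 upstream regulators, 7, 8, 6, 2, 4 and 3 rose and 5, 4, 6, 3, 6 and 11 fell, with medians between -0.19 and 0.08. Myc, which drives Ccnd2 and Cdk4 and binds E-boxes such as those printed for Cdk4, fell in all 6 contrasts (-0.54, -0.80, -0.51, -0.23, -0.62 and -0.77), from a mean of 98.6 CPM in isotype PBS Tregs to 68.8 CPM with 3x. Pim1, a kinase gene induced through STAT5, rose in all (0.63, 0.68, 0.62, 0.42, 0.59 and 0.49), while its relative Pim2 fell in 5 (-0.77, -1.03 and -1.12 with isotype, -0.40 and -0.29 with H16R and 3x under block). Mxi1, a Myc antagonist, rose with isotype (0.24, 0.39 and 0.33). Foxo1, a forkhead factor that favours Cdkn1b, rose with isotype (0.13, 0.30 and 0.25) and passed nowhere under block (-0.08, 0.08 and -0.07). Compared with isotype, 2, 10, 12 and 13 of the 17 were lower under block with PBS, WT IL-2, H16R and 3x, beside 8.13%, 15.3%, 15.2% and 26.9% of all genes.

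Of 14 genes tested for the turnover of D cyclins and Kip proteins, 6, 7, 9, 3, 6 and 6 rose and 2, 1, 1, 1, 1 and 2 fell, with medians between 0.05 and 0.15. Usp2, a deubiquitinase that stabilises cyclin D1, fell in all 6 (-0.91, -1.58, -1.23, -0.81, -0.98 and -1.30), and Fbxo31, an F-box protein that targets cyclin D1, rose in 5 (0.49, 0.66 and 0.34 with isotype, 0.42 and 0.15 with H16R and 3x under block). Cks1b, a cofactor of p27 degradation, rose with isotype 3x (0.56) and with H16R (0.60) and 3x (1.25) under block, and Skp1a, a subunit of the same ligase, fell with isotype WT IL-2 (-0.10). Of 11 p53-linked genes tested, 6, 6, 4, 3, 5 and 7 rose and 2, 3, 3, 2, 3 and 3 fell, with medians between 0.14 and 0.19. Ccng1 rose in all 6 (0.50, 0.67, 0.57, 0.36, 0.51 and 0.58), whereas Trp53 itself fell in all (-0.28, -0.36, -0.33, -0.15, -0.31 and -0.39), as did Aen (-0.12, -0.24, -0.26, -0.22, -0.33 and -0.26). Gtse1 rose with isotype 3x (0.55) and with H16R (0.68) and 3x (1.24) under block. The shares of these lists that were called are to be read beside the 52.2%, 64.2%, 63.6%, 35.6%, 66.5% and 73.0% of all genes called in the same contrasts.

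In Tcons, 13 of the 16 proliferation genes rose for WT IL-2, 10 for H16R and 0 for 3x, with medians of 0.74, 0.75 and 0.18, beside 14.8%, 16.2% and 4.71% of all genes that rose. The plasma cell sum given above moved with them. Under block, 14 were higher, beside 13.8% of all genes. In same-mouse pairs the proliferation list was lower in Tregs with WT IL-2 (13 of 16 lower, 0 higher, beside 31.5% of all genes lower) and higher with 3x (13 higher, 1 lower, beside 36.7% of all genes higher). With WT IL-2, all 3 NK cell, 4 of 5 myeloid and 2 of 3 plasma cell markers were lower in Tregs too. The erythroid sum of the same WT IL-2 mice was 1.67 to 45.8 CPM in Tregs and 13.3 to 214.5 CPM in Tcons. The part of such cells in the list's values was not tested. Of the 4 further CDK inhibitors, 4 were higher in Tregs than in Tcons with 3x, whereas with PBS 1 was higher and 2 were lower, beside 50.4% of all genes called in either direction with PBS.

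The genes whose log2 CPM followed the members most closely were taken over the 32 Treg libraries, among tested genes with a mean above 5 CPM. For Cdkn2c they were Plxdc1 (Pearson's r = 0.993), Cmtm7 (0.988) and Anxa2 (0.987), and for Cdkn2d Glipr2 (0.983), Prkag1 (0.981) and H2afy (0.975). For Cdkn1a they were Map2k3 (0.923), Ston2 (0.912) and F2r (0.906), and for Cdkn1b Supt20 (0.910), Tagap (0.898) and Cand1 (0.894). For Ccnd2 they were Eri1 (0.944), Fkbp5 (0.928) and Hnrnpa2b1 (0.926), and for Ccnd3 Lamtor3 (0.935), Hdac1 (0.934) and Lpar5 (0.925). Ccnd1 was followed by Plbd1 (0.966), Wdfy4 (0.964) and Flt3 (0.955), the last a receptor of dendritic cells and their precursors.
Cdk4 was followed by Ruvbl2 (0.916), Eef1g (0.908) and Chchd10 (0.906), and Rb1 by Ap5m1 (0.922), Mier1 (0.896) and Stag2 (0.872). Among the members themselves, Ccnd2 and Ccnd3 moved together (r = 0.843) and Ccnd3 and Cdkn1b in opposite directions (r = -0.753). All of these values share the same 32 libraries and their treatments.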

How the data were processed

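RNA from splenic Tregs (32 libraries) and Tcons (16 libraries) was sequenced after TruSeq stranded mRNA preparation. The authors aligned reads with OSA in Omicsoft Array Suite to mouse B38, quantified genes with the Omicsoft implementation of RSEM, and deposited expected counts and FPKM per gene. Expected counts, which need not be whole, were rounded here. Protein-coding genes with CPM above 0.5 in at least 4 libraries were kept (12392 in Tregs, 12526 in Tcons, 12844 in same-mouse pairs). Main tests were edgeR 4.0.16 quasi-likelihood tests in R 4.3.3 with TMM factors, Benjamini-Hochberg adjustment over all genes tested and an adjusted p under 0.1, the filter and threshold following the study's methods. Tregs were fitted with 1 mean per group over 32 libraries, Tcons with treatment and antibody arm, and Treg and Tcon pairs with mouse as a block. Treg and Tcon libraries of 1 mouse carry the same number in the labels, and their deviations from the group means correlated with a median r of 0.257 (0.153 to 0.552, 16 mice). CPM printed per library are TMM-normalized. The authors' FPKM were used for levels between genes.

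Alternatives were DESeq2 1.42.0, limma 3.58.1 on log2(FPKM + 1) and log2(FPKM + 0.1), other size factors, filters and thresholds, thinned counts, replicate blocks and leaving out each library. Scripts were tested on simulated data. The 10 genes and the pathway and marker lists were chosen with earlier results of these data known. The rule for named genes took all 10 in every comparison (those past no test in part by count), list genes by at least the 2 largest called rises and falls in the isotype contrasts, and likeness by the 3 highest correlations, which are not reported here for Cdk6. From the lists, Skp1 had no match under that name, and sequence came from RefSeq promoters of GRCm38.p6. Sequencing batches are not given in the sources used here.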

Additional observations from a re-analysis of the deposited data

Results flagged for a closer look

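Each of the 10 genes was checked in each of the 8 Treg groups, which gave 80 sets of 4 values. Of these sets, 4 held a library far from the other 3, about the 1 in 20 that chance gives. The sets reuse the same 32 libraries and are not independent. These were Ccnd1 in isotype PBS replicate 1 (8.05 CPM), Ccnd1 in MHC II block 3x replicate 1 (4.86 CPM), Ccnd2 in MHC II block 3x replicate 2 (446.3 CPM) and Cdkn2d in isotype H16R replicate 3 (70.5 CPM).

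The effect of an IL-2 molecule differed between antibody arms, by a test of the difference itself (edgeR, block minus isotype, log2 scale), in 13 of 30 member tests. With WT IL-2 these were Ccnd1 (1.78) and Cdkn2c (-0.51). With H16R they were Ccnd1 (1.67), Ccnd3 (0.37), Cdk4 (0.18), Cdkn1a (1.02) and Cdkn1b (-0.31). With 3x they were Ccnd1 (1.42), Ccnd2 (0.36), Ccnd3 (0.42), Cdkn1a (1.39), Cdkn1b (-0.51) and Cdkn2c (0.46). Of these, the H16R calls of Cdk4 and Cdkn1b were each lost without any of 5 and 7 single libraries.

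The Treg to Tcon difference changed against PBS in 16 of 30 member tests. With WT IL-2 these were Ccnd1 (-1.17), Ccnd3 (-0.26) and Cdkn1b (0.32). With H16R they were Ccnd1 (-1.42), Cdk4 (-0.44), Cdkn1a (0.42), Cdkn1b (0.31), Cdkn2c (0.81) and Cdkn2d (0.57). With 3x they were Ccnd1 (-1.19), Ccnd2 (0.45), Cdk6 (0.76), Cdkn1a (0.68), Cdkn2c (1.53), Cdkn2d (0.79) and Rb1 (0.35). Adjusted p-values of these tests ran from 3.07e-06 for Cdkn2c with 3x to 0.0878 for Rb1 with 3x. The 3 calls with WT IL-2, those of Cdkn1a and Cdkn1b with H16R and that of Rb1 with 3x were each lost without at least 1 single mouse.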

How the results depend on the processing

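The smallest library held 18.28 M expected counts, and thinning every library to it kept 287 of 300 member tests on their side of the threshold. No called change turned its direction under any alternative run. DESeq2 kept 295 of 300 tests, RLE size factors 297, total counts alone 280, no CPM filter 289, all biotypes 284, limma on FPKM 272 and 273, and fits of only the groups compared 143 of 160. Of 161 called tests, 120 stayed called whichever library was left out. Total-count scaling shifted the median of all genes by over 0.1 in 1 contrast, Treg minus Tcon with H16R (-0.11).

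The calls depended most on the size asked for. When calls also had to reach 1 in either direction on the log2 scale, calls went from 21 to 6 for the molecules against PBS with isotype, from 19 to 5 under block, from 19 to 3 for block against isotype, from 10 to 0 and 22 to 3 between molecules with isotype and block, from 13 to 5 for the change of the IL-2 effect with block, from 8 to 0 and 4 to 0 in Tcons, from 29 to 7 for Tregs against Tcons and from 16 to 4 for its change. At an adjusted p under 0.05, Tcon calls went from 8 to 3 against PBS and from 4 to 1 for block against isotype. Leaving out 1 library at a time, the same counts ranged over 18 to 23, 16 to 20, 17 to 22, 7 to 14, 20 to 22, 11 to 17, 3 to 11, 1 to 6, 26 to 31 and 12 to 18. The Tcon count against PBS was 3 without MHC II block PBS replicate 1 or 2.

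Across Treg groups, deviations of libraries with equal replicate numbers had a median r of 0.025 (-0.481 to 0.657, 112 pairs). For different numbers it was -0.009 (-0.582 to 0.444, 336 pairs), and 11 of 32 libraries were closest to their own number. Whether equal numbers share a batch was not tested. The replicate block made calls of Cdkn2c for H16R against WT IL-2 with isotype (0.26, adjusted p = 0.0586) and for the H16R interaction (0.36, 0.0815). It lost the Tcon call of Cdkn1a with WT IL-2 (0.104). With the replicate block the counts were 21, 19, 19, 11, 22 and 14 in Tregs and 7 and 4 in Tcons, and without the mouse block 27 and 14 for the Treg and Tcon pairs.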
